A study of Mus musculus with 8 samples.

Results

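The 10 genes described here are AP-1 and immediate early transcription factors: Fos, Fosb, Fosl1, Fosl2, Jun, Junb, Jund, Egr1, Atf3 and Ier2. They were taken by name from GENCODE M21 symbols matched to a deposited gene table of 35852 genes, of which 13272 passed the filter on low counts. Of the 10, 9 were listed in that table and all 9 passed the filter; Ier2 was not listed there and was read from the deposited transcript tables. The RNA was from bEnd3, an established mouse line of brain endothelial origin, grown in DMEM with 10% FCS. Corticosterone was given at 5 µM over 24 h in 4 libraries, and the other 4 were from cells in culture medium, according to their treatment field. The labels name no vehicle, and the protocol text of the medium samples also names corticosterone. Separate cultures are not stated for the replicates, so each p-value reflects only how these samples vary, which may be technical.

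AP-1 is a dimer of basic leucine zipper (bZIP) proteins. Fos proteins pair only with a partner such as a Jun protein, whereas Jun proteins can also pair with each other, and which subunits are present sets how strongly the dimer activates transcription. Many of these genes are immediate early genes, known for a fast and brief rise after serum, growth factors or stress, without new protein synthesis. The ligand-bound glucocorticoid receptor, which corticosterone activates in mice, is known to repress AP-1-driven transcription by protein contact and also to induce genes through its own DNA sites. Only the 24 h time was measured, so earlier levels are not described.

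The libraries held 27.7 to 33.2 M estimated counts for corticosterone replicates 1 to 4 (M is 1e+06), against 19.7 to 46.2 M for medium replicates 1 to 4. All 12 endothelial markers had a mean of at least 1 CPM (counts per 1e+06, scaled by TMM) and summed to between 9163 and 9515 CPM with corticosterone, against 8460 to 9013 CPM in medium. Of these 12, 6 rose with corticosterone and 4 fell (edgeR adjusted p under 0.05), against 19.5% and 20.6% of all genes tested. The similar sums thus do not mean that each marker kept its level. Fibroblast markers summed to between 5.7 and 6.7 CPM with corticosterone, against 19.9 to 22.0 CPM in medium, with 2 of 7 genes at 1 CPM or more, and neural markers to between 1.6 and 2.0 CPM, against 0.8 to 1.3 CPM, with Aqp4 and Olig2 at 0 in all libraries. Pericyte and smooth muscle markers summed to between 1.7 and 2.6 CPM with corticosterone, against 2.1 to 3.6 CPM in medium, and immune markers to between 16.7 and 18.5 CPM, against 16.8 to 18.8 CPM, with P2ry12 at 0. Most of the fibroblast sum was 1 gene, Pdgfra, with 4.73 to 5.02 CPM with corticosterone and 17.1 to 19.6 CPM in medium. Most of the immune sum was Cd68, with 16.3 to 18.2 CPM with corticosterone and 16.3 to 18.5 CPM in medium. These 2 sums therefore describe single genes more than a cell type. The part of these markers in the results below was not tested. In bulk RNA, fewer cells of a type and less RNA per cell cannot be told apart. Corticosterone libraries 1 and 2 stood apart in their quantification: their effective lengths were the transcript length plus 1 in all 61001 transcripts of 1000 nt or more, so the fold changes and list counts are also given for the other 6 libraries, and TPM, a level per transcript length, is compared within those 6.

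The start regions of 3 members are shown because these genes moved in different directions and hold a match to a CRE-like or AP-1-like motif. The stretches are RefSeq promoter sequence on GRCm38.p6, from 250 bases before to 30 after the annotated start, read 5′ to 3′ on the gene's strand. Capitals mark TGACGT (on the gene's strand in Fos, on the other strand in Atf3), TGACATCA in Jun and the TATA motif TATAAA in Fos.
Fos, chr12:85473640-85473919, plus strand: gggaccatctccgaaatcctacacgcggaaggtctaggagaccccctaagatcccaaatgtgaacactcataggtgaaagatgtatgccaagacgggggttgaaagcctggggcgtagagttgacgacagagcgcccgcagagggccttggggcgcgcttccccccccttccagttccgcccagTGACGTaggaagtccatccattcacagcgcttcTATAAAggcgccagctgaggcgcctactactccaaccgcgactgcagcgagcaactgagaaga
Jun, chr4:95052193-95052472, minus strand: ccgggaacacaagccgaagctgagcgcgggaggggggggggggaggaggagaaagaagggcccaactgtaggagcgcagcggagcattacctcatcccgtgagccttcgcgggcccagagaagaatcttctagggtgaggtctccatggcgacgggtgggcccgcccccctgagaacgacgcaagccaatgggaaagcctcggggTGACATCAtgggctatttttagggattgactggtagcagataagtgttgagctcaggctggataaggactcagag
Atf3, chr1:191183304-191183583, minus strand: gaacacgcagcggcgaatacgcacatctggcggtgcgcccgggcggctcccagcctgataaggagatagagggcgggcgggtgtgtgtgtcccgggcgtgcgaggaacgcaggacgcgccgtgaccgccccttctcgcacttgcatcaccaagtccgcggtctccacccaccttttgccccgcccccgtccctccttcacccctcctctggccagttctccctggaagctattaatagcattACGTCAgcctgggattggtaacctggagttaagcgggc
Motifs were searched on both strands in windows of 250 bases before to 50 after each start. TGACGT, which also counts within TGACGTCA, stood at -66 to -61 from the start in Fos and at -8 to -3 in Atf3, and in 7.51% of 32851 promoters. TGACATCA stood at -45 to -38 in Jun and in 3.62% of promoters, and TATAAA at -33 to -28 in Fos and in 13.6%. The searches for TGACGTCA (1.79% of promoters), TGANTCA (7.81%), the CArG box bound by serum response factor (1.63%), the full palindromic glucocorticoid response element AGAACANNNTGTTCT (0.00913%) and the shorter TGTTCT within it (19.0%) had no match in the Fos, Jun or Atf3 windows. Of the other members, Junb held TATAAA at 1 to 6 from its annotated start, and Fosb, Fosl2 and Jund held no match. The Jund window lay upstream of the GENCODE gene, and the Fosl2 and Atf3 windows lay inside theirs. For Junb, the stretch up to 30 bases after the start used also lay upstream of the GENCODE gene, whose 5′ end is at 84978718. Its TATAAA thus lay before that end, not inside the GENCODE gene. The start used for Atf3 is thus an internal one, not the 5′ end of the GENCODE gene at 191218039. The windows of Egr1, Fosl1 and Ier2 were not searched. Bases beyond the windows were not searched, so no match here does not mean that a gene lacks the motif further away. A match is a description of letters, not a site.

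Of the 10 genes, 6 rose with corticosterone, 3 fell and Fosl1 did not pass the test. Of the 9 in the gene table, 5 rose and 3 fell at an edgeR adjusted p under 0.05, against 19.5% of all genes tested that rose and 20.6% that fell (40.1% in either direction). Ier2, the sixth, rose in the fit on transcript sums, where 19.6% of genes rose. The groups did not overlap in 7 of the 9, against 39.9% of all genes tested. The median log2 fold change of the 9 was 0.20, beside -0.01 over all genes tested, and no test of the list was made. In the 6 libraries other than corticosterone 1 and 2, where 36.4% of genes changed, the same 8 of 9 members passed in the same directions.

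**Figure D1:**
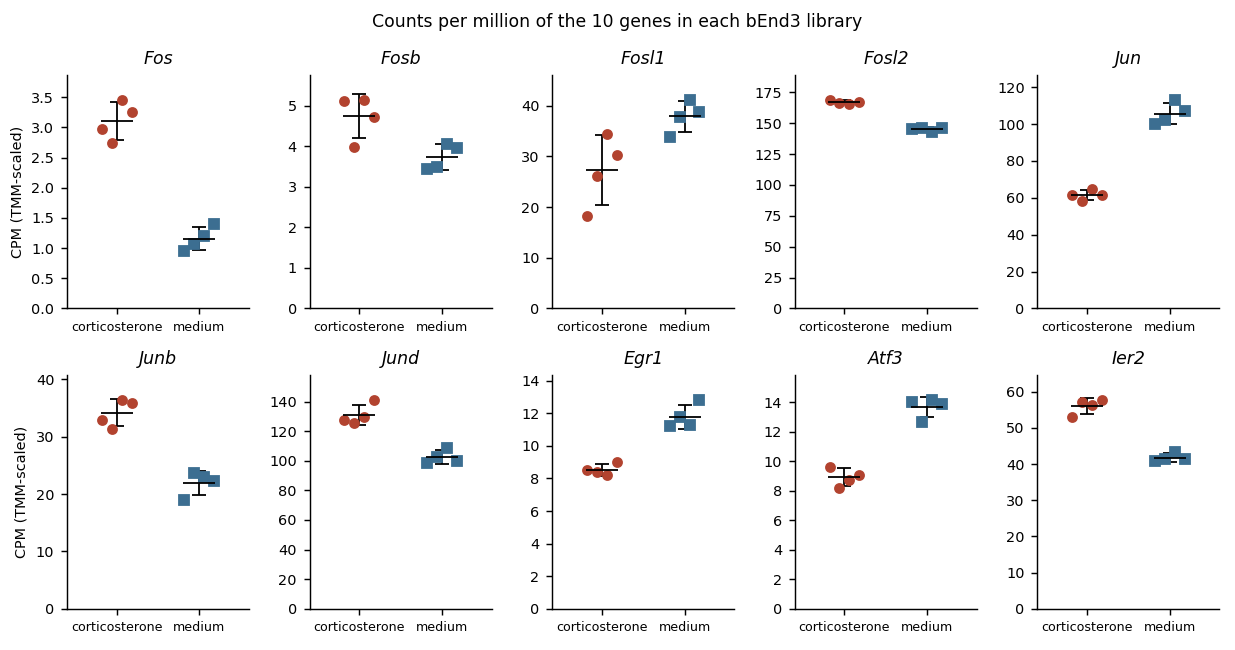
CPM (TMM-scaled, linear axis from 0) of each gene, with 1 point per library, corticosterone left and medium right, and bars for the mean ± SD (n = 4 each). The groups stand apart for 8 of the 10 genes, and Fosb and Fosl1 overlap.

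Fos, the founding AP-1 subunit, rose most. It is encoded on chromosome 12 (85473890 to 85477273, plus strand, 4 exons, GENCODE M21 on GRCm38). Its level was 2.98, 2.73, 3.46 and 3.25 CPM in corticosterone libraries 1 to 4, against 0.954, 1.07, 1.21 and 1.39 CPM in medium libraries 1 to 4. Every corticosterone library was above every medium library. The mean was 3.11 ± 0.32 CPM with corticosterone and 1.16 ± 0.19 CPM in medium (SD, n = 4 each), a 2.70-fold difference (log2 fold change 1.43 ± 0.16 SE, edgeR adjusted p = 1.64e-05). The counts behind it were small, 74 to 114 with corticosterone and 24 to 45 in medium. In the 6 libraries the log2 fold change was 1.56 ± 0.20.

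Fosl2 (Fra-2), a Fos protein without the strong activation domain of Fos, is on chromosome 5 (32135801 to 32157842, plus strand). It had 169, 166, 166 and 168 CPM with corticosterone, against 146, 146, 143 and 146 CPM in medium. The libraries of each group lay close together and the groups did not overlap. The means were 167 ± 1.53 and 145 ± 1.76 CPM, a 1.15-fold rise (log2 fold change 0.20 ± 0.02 SE, edgeR adjusted p = 8.61e-06; 0.20 ± 0.03 in the 6 libraries). Fosb, another Fos subunit with known truncated forms, is on chromosome 7 (19302696 to 19310051, minus strand). It had 5.13, 3.99, 5.16 and 4.73 CPM with corticosterone, against 3.46, 3.50, 4.07 and 3.97 CPM in medium. Corticosterone library 2 lay within the medium range. Its rise was 1.27-fold (log2 fold change 0.35 ± 0.11 SE, edgeR adjusted p = 0.0281). The call was lost when any of corticosterone 1, 3 or 4 or medium 1 or 2 was left out, with the adjusted p between 0.00704 and 0.0808 over all 8 such fits, and held in the 6 libraries (adjusted p = 0.0149).

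Fosl1 (Fra-1), which like Fosl2 lacks the strong activation domain, is on chromosome 19 (5447547 to 5455946, plus strand). It had 18.2, 26.2, 34.5 and 30.3 CPM with corticosterone, against 33.8, 37.8, 41.2 and 38.8 CPM in medium. Corticosterone 3 lay above medium 1, and corticosterone 1 was the lowest of the 8. The means were 27.3 ± 6.95 and 37.9 ± 3.08 CPM (log2 fold change -0.47 ± 0.20 SE, edgeR adjusted p = 0.107). In the 6 libraries the log2 fold change was -0.21 ± 0.08 (adjusted p = 0.081), and without corticosterone 1 alone it was -0.32 (adjusted p = 0.0414).

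Fosl1 shares sequence with its neighbour. The gene overlaps Ccdc85b, on the opposite strand, by 2767 nt, and 1107 of its 2031 31-mers occur there, leaving 45.5% in no other gene; whether the counting used strand is not given in the sources used here, so the split of reads between both genes is uncertain. Ccdc85b, a coiled-coil protein gene, had 178, 168, 162 and 175 CPM with corticosterone, against 189, 193, 205 and 191 CPM in medium, and fell (log2 fold change -0.19, edgeR adjusted p = 0.000718). The summed counts of both genes averaged 198 ± 4.73 CPM with corticosterone and 232 ± 9.74 CPM in medium. This sum, added after the values were seen, passed the test (log2 fold change -0.23 ± 0.03, edgeR adjusted p = 7.73e-05). Ccdc85b made up most of the sum, with means of 171 and 195 CPM, and fell by itself. The test of the sum therefore does not describe Fosl1 alone. Corticosterone 1 and 2 also differed from the rest in how Fosl1 counts fell on transcripts. The main coding transcript Fosl1-201 held 88.3, 61.1, 99.4 and 98.8% of its counts with corticosterone and 97.1 to 99.0% in medium. The short transcript Fosl1-203 (357 nt) held 36.5% in corticosterone 2 and at most 0.2% elsewhere. The retained-intron transcript Fosl1-202 held 11.7% in corticosterone 1. Such a shift was not confined to Fosl1. Fosb-201 held 36.3 and 63.3% of the Fosb counts in corticosterone 1 and 2, against 78.8 to 88.6% in the other libraries.

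**Figure D2:**
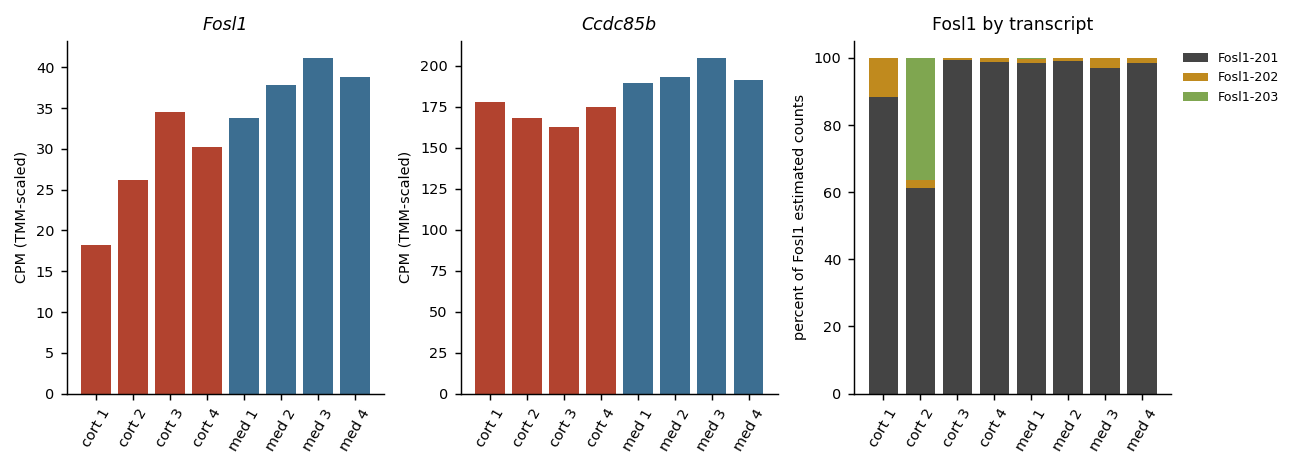
Left and middle, CPM of Fosl1 and of its opposite-strand neighbour Ccdc85b in each library, with corticosterone in red and medium in blue; right, the percent of Fosl1 estimated counts on each transcript. Fosl1 is lowest in corticosterone 1 (18.2 CPM), and Fosl1-203 holds 36.5% of the counts in corticosterone 2.

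The Jun genes went both ways. Jun, the main transactivating partner in AP-1, is a gene of 1 exon on chromosome 4 (95049034 to 95052222, minus strand). It had 61.8, 58.3, 64.7 and 61.6 CPM with corticosterone, against 100.3, 102, 113 and 107 CPM in medium. No library of one group came near the other. The means were 61.6 ± 2.64 and 106 ± 5.82 CPM, and Jun fell to 0.584 of the medium level (log2 fold change -0.78 ± 0.04 SE, edgeR adjusted p = 2.75e-08). In the 6 libraries the log2 fold change was -0.73 ± 0.05. The annotated antisense gene Junos overlaps it by 689 nt and was not analysed here.

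Junb, a weaker activator that can restrain Jun in some settings, is on chromosome 8 (84974484 to 84978718, minus strand). It had 33.0, 31.4, 36.4 and 35.9 CPM with corticosterone, against 19.0, 23.6, 22.9 and 22.2 CPM in medium. Its lowest corticosterone library was above its highest medium library. It rose 1.56-fold (log2 fold change 0.64 ± 0.07 SE, edgeR adjusted p = 1.93e-05; 0.74 ± 0.07 in the 6 libraries). Prdx2, a peroxiredoxin gene that overlaps Junb on the opposite strand by 351 nt, rose too (log2 fold change 0.40, adjusted p = 3.18e-07), and no 31-mer of Junb was shared with another gene. Jund, a Jun protein known for steady expression in resting cells, is on the same chromosome (70698949 to 70700616, plus strand). It had 128, 126, 130 and 141 CPM with corticosterone, against 98.7, 103, 109 and 99.5 CPM in medium. The groups did not overlap, and it rose 1.28-fold (log2 fold change 0.36 ± 0.04 SE, edgeR adjusted p = 2.51e-05; 0.41 ± 0.04 in the 6 libraries). The annotated antisense gene Gm11175 overlaps it by 919 nt and was not analysed here.

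Per length, Jun fell relative to Junb, while Jund stayed the most abundant of the 3 Jun genes. In TPM, the ratio of Jun to Junb was 0.92 and 0.88 in corticosterone 3 and 4, against 2.70, 2.21, 2.54 and 2.48 in medium 1 to 4. It was 1.06 and 1.05 in corticosterone 1 and 2, whose TPM rest on another effective length. Jun made up 15.6 and 14.1% of the TPM of the 3 Jun genes in corticosterone 3 and 4, against 27.5 to 29.3% in medium. Jund made up 67.3 and 69.8%, against 58.8 to 60.8%, and Junb 17.1 and 16.1%, against 10.6 to 12.4%. The summed TPM of the Jun genes was at least 192 in corticosterone 3 and 4, against 168 to 182 in medium, while that of the 4 Fos genes was 75.2 and 71.7, against 72.2 to 79.5. Fos itself stayed a small share of the Fos genes' TPM, 3.6 and 4.4%, against 1.0 to 1.9% in medium. The sums and shares of the Fos genes include Fosl1, whose split of reads with Ccdc85b is uncertain. The shares are a description of 2 against 4 libraries with no test.

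**Figure D3:**
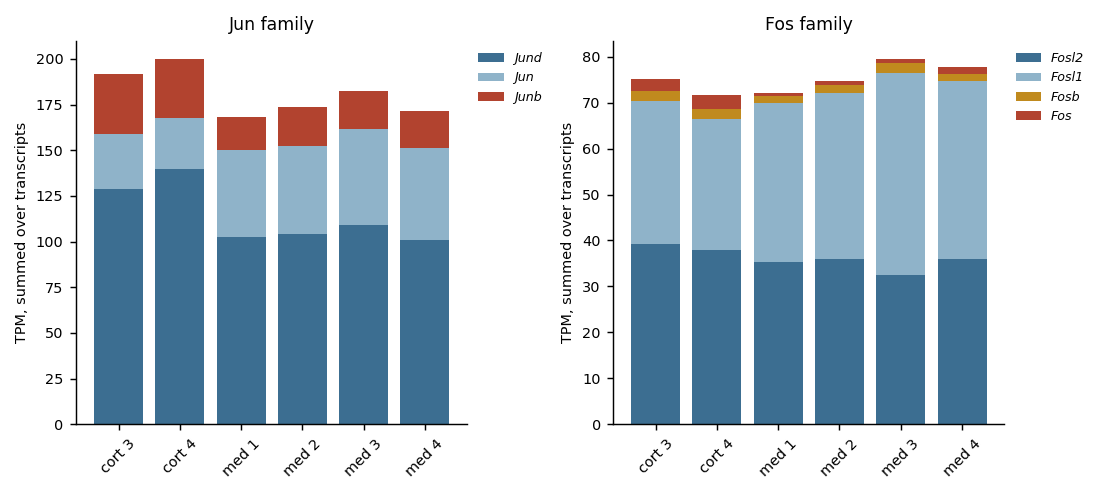
TPM of the Jun genes (left) and the Fos genes (right), stacked, in the 6 libraries quantified alike: corticosterone 3 and 4, then medium 1 to 4. Jun is smaller and Junb and Jund are larger in both corticosterone libraries, and Fosl1 and Fosl2 make up most of the Fos genes in all 6. The Fosl1 part rests on an uncertain split of reads with Ccdc85b.

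In medium, the order of the levels in TPM was Jund (104 ± 3.52, SD, n = 4), Jun (49.7 ± 2.26), Ier2 (47.9 ± 0.76), Fosl1 (38.3 ± 4.08), Fosl2 (35.0 ± 1.63), Junb (20.1 ± 1.64), Atf3 (12.4 ± 1.36), Egr1 (5.73 ± 0.35), Fosb (1.77 ± 0.27) and Fos (0.98 ± 0.32). The medium libraries overlapped between Jun and Ier2 and between Fosl1 and Fosl2, and the other neighbours stood apart. The place of Fosl1 also rests on its uncertain split of reads with Ccdc85b. In corticosterone 3 and 4 Jun was in place 6 of the order, with a mean of 29.1 TPM, and Ier2 in place 2, with 63.9 TPM. Fos had the lowest level in medium, and Fosb (2.12 TPM) was below Fos (2.92 TPM) in corticosterone 3 and 4.

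Egr1 and Atf3 fell. Egr1, a zinc finger factor induced through the serum response factor, is on chromosome 18 (34859823 to 34864984, plus strand). It had 8.52, 8.39, 8.19 and 9.03 CPM with corticosterone, against 11.2, 11.8, 11.3 and 12.8 CPM in medium. The groups did not overlap, and the log2 fold change was -0.47 ± 0.06 SE (edgeR adjusted p = 8.65e-05; -0.45 ± 0.08 in the 6 libraries). Atf3, a stress-induced bZIP factor that pairs with Jun proteins and often represses, is on chromosome 1 (191170296 to 191218039, minus strand). It had 9.62, 8.20, 8.74 and 9.10 CPM with corticosterone, against 14.0, 12.7, 14.2 and 13.9 CPM in medium. Every corticosterone library was below every medium library, and it fell to 0.652 of the medium level (log2 fold change -0.62 ± 0.07 SE, edgeR adjusted p = 7.51e-06; -0.62 ± 0.08 in the 6 libraries). In corticosterone 1, 74.9% of the Atf3 counts lay on the transcript Atf3-203, which had none in the other 7 libraries, while the gene total there (9.62 CPM) was close to that of the other 3.

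Ier2, an immediate early gene of a small nuclear protein family, is a gene of 1 exon on chromosome 8 (84661331 to 84662852, minus strand). Summed from its transcript, it had 53.0, 57.2, 56.4 and 57.8 CPM with corticosterone, against 40.8, 41.5, 43.5 and 41.4 CPM in medium. The groups stood apart, and it rose 1.34-fold (log2 fold change 0.43 ± 0.04 SE, edgeR adjusted p = 8.4e-07; 0.46 ± 0.04 in the 6 libraries). The version of its transcript in the tables differs from the one in GENCODE M21; 123 genes were in the transcript sums and not in the gene table.

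Leaving out corticosterone 1 and 2 moved the estimate of Fosl1 most, and all 10 genes kept their calls, Fosl1 as not past the threshold. With limma on log2(TPM + 1) over all 8 libraries, whose length scales differ, Fosb, Fosl2 and Egr1 missed the threshold (adjusted p = 0.161, 0.0994 and 0.0687). Medium 1, the deepest library, was the lowest of its group for 8 of the 10 genes, and medium 3, the shallowest, was the highest for 6. Among the corticosterone libraries, replicate 3 was the highest for 5 genes and replicate 2 the lowest for 6.

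**Figure D4:**
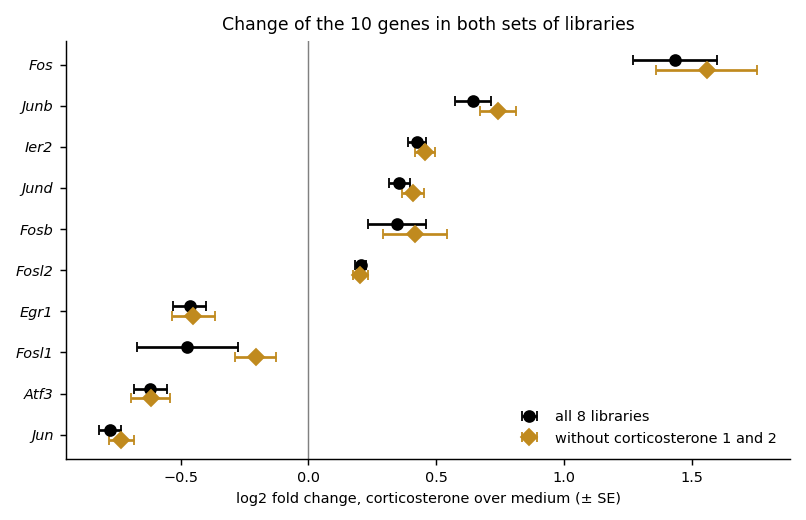
Log2 fold change, corticosterone over medium, of each gene (points, ± SE), over all 8 libraries and over the 6 without corticosterone 1 and 2. From the top, Fos has the largest rise (1.43) and Jun the largest fall (-0.78), and Fosl1 is the gene whose estimate moves most between both sets (-0.47 and -0.21).

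Other bZIP proteins that can pair with or compete against AP-1 subunits also went both ways. Of 23 listed, 20 were tested (Batf, Batf2 and Maf were not), and 9 rose, 5 fell and 6 did not pass, with a median log2 fold change of 0.14; 19.5% of all genes tested rose and 20.6% fell, and 70.0% of the list changed against 40.1% of all genes. Over the 6 libraries, 8 rose and 5 fell. The C/EBP genes Cebpb (46.7 ± 6.69 CPM with corticosterone and 13.3 ± 0.76 CPM in medium, 3.52-fold, edgeR adjusted p = 5.06e-07) and Cebpd (52.1 ± 1.76 and 15.7 ± 1.05 CPM, 3.32-fold, adjusted p = 6.41e-11) had the largest rises of the list. Crem, a cAMP-responsive factor, rose 1.45-fold and Mafg, a small Maf protein, 1.39-fold. The 5 that fell were Creb5 (0.441 of the medium level), Batf3 (0.573), Mafk (0.831), Atf4 (0.862) and Nfe2l2 (0.872), the last the regulator of the antioxidant response.

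Of 34 other immediate early genes, 31 were tested (Egr2, Egr4 and Npas4 were not), and 17 rose, 10 fell and 4 did not pass, with a median of 0.14; 87.1% of the list changed, against 40.1% of all genes (19.5% rose, 20.6% fell). Without corticosterone 1 and 2, 18 rose and 7 fell. Nr4a3, among those that rose, passed the filter on low counts through the corticosterone libraries; without it 16 of 30 rose. The orphan nuclear receptor gene Nr4a1 rose most by fold, 3.03-fold (83.9 ± 2.87 CPM with corticosterone and 27.7 ± 0.99 CPM in medium, edgeR adjusted p = 4.85e-12). Sik1, a kinase, rose 2.15-fold and Rhob, a small GTPase, 1.67-fold, and Btg1, an antiproliferative gene, fell to 0.522 of the medium level. Chosen after their values were seen, Ccn1 and Ccn2, matricellular proteins, fell to 0.277 and 0.278 of the medium level, the largest falls of the list. Like the AP-1 genes, the list held both rises and falls.

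Of 30 kinases and factors upstream of the early genes, 28 were tested (Myocd and Mapk13 were not), and 8 rose, 8 fell and 12 did not pass, with a median of -0.02; 57.1% of the list changed, against 40.1% of all genes (19.5% rose, 20.6% fell). Over the 6 libraries, 7 rose and 6 fell. Mrtfb, a cofactor of serum response factor, rose 1.32-fold. The kinase genes Rps6ka5 and Rps6ka3 rose (log2 fold changes 0.58 and 0.16), and Elk3, a ternary complex factor, fell to 0.770 of the medium level. Dusp1, a phosphatase gene that inactivates MAP kinases, is not on this list but on that of glucocorticoid receptor targets. It had 125 ± 4.22 CPM with corticosterone and 67.4 ± 2.05 CPM in medium, a 1.86-fold rise (edgeR adjusted p = 3.18e-10).

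Of 30 genes known as AP-1 targets, 25 were tested (Mmp9, Mmp10, Il6, Lif and Il11 were not), and 5 rose, 14 fell and 6 did not pass, with a median of -0.28; the share that rose was near the 19.5% of all genes, of which 20.6% fell and 40.1% changed. In the 6 libraries the counts were also 5 and 14. Mt1 and Mt2 passed the filter on low counts through the corticosterone libraries and Mmp13 through the medium libraries; without them 3 of 22 rose and 13 fell, with a median of -0.33. Tenascin C gene Tnc fell to 0.401 of the medium level (397 ± 22.2 CPM with corticosterone and 991 ± 33.4 CPM in medium, adjusted p = 3.04e-10). The matrix metalloprotease gene Mmp3 fell to 0.316 and the endothelin gene Edn1 to 0.306 of it. The 5 that rose were Ptgs2, which makes prostaglandins (1.63-fold), the chemokine gene Ccl2 (1.59-fold), Mmp14 (1.20-fold) and the metallothionein genes Mt1 and Mt2, which are also on the list of glucocorticoid receptor targets. Mt2 had 455 counts with corticosterone and 1 in medium (ratio 469, 95% exact interval 83.7 to 18560) and Mt1 had 65 and 3 (ratio 22.3, interval 7.31 to 111), with intervals that cover counting error only.

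Of 20 glucocorticoid receptor targets, 18 were tested (Pdk4 and Tat were not), and 17 rose and 1, Angptl4, did not pass, with a median of 1.69 that is the same with Zbtb16 (at least 199.6-fold higher, from a floor of 3 counts over the medium group) at its bound; 19.5% of all genes tested rose, and 17 of the list rose in the 6 libraries as well. Lcn2, Mt1, Mt2 and Zbtb16 passed the filter on low counts through the corticosterone libraries, so they could only be higher there; without these 4, 13 of 14 rose, with a median of 1.11. The list was chosen with earlier results of these data known, so its count is a description and not independent support. Cebpd is also on the list of bZIP partners, Zfp36 on that of early genes, and Mt1 and Mt2 on that of AP-1 targets. The counts of these lists are therefore not separate observations. Fkbp5, a cochaperone that dampens the receptor, had 269 ± 3.06 CPM with corticosterone and 39.4 ± 1.92 CPM in medium (6.83-fold, adjusted p = 6.33e-14). Tsc22d3, which encodes GILZ, an AP-1-binding protein, rose 3.87-fold, Ddit4 3.11-fold and Sult1a1 74.7-fold. Lcn2 had 3916 counts with corticosterone and 1 in medium (ratio 4036, interval 724 to 159400). The receptor gene Nr3c1 fell to 0.792 of the medium level.

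**Figure D5:**
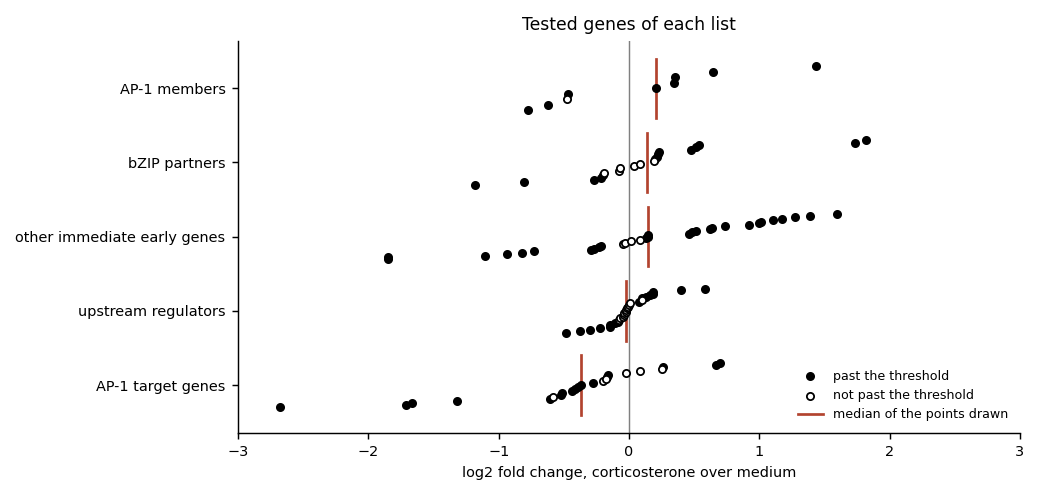
Log2 fold change, corticosterone over medium, of each tested gene (points, filled where past the threshold) in 5 lists; red lines are the median of the points drawn. Mt1 and Mt2 are left out of the target genes, so that line is lower than the -0.28 of all 25. The AP-1 genes, partners and early genes lie on both sides of 0, and most target genes lie below it.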

How the data were processed

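Poly(A)-selected, directional RNA-seq libraries of 8 bEnd3 samples were compared, 4 with corticosterone and 4 in medium. Per the submitters' processing notes, bcl2fastq, kallisto 0.46.1 and the builds mm10 and GRCm38 were used; no index, read length, strand setting or summing step is given there. The authors deposited a gene table of estimated counts, not normalized, and, per library, tables of 119414 transcripts with an estimated count and TPM. The deposited TPM is scaled by the effective length, per the file headers; that length was the transcript length plus 1 in corticosterone 1 and 2 and a median of 340.4 to 360.3 nt shorter in the other 6 libraries. Transcripts were joined to genes by GENCODE M21, which matched 97.2% of identifiers with their version. The gene table equalled the sums of version-matched transcripts within 0.5 counts for all 35773 genes compared.

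After rounding of the estimated counts to integers, edgeR 4.0.16 (R 4.3.3) was used (filterByExpr by group, TMM, quasi-likelihood F test, robust, Benjamini-Hochberg over all 13272 genes, threshold 0.05). CPM are TMM-scaled, and the SE is the log2 fold change divided by the square root of F. Ier2 was fitted on transcript sums. The steps were tested on simulated data. Alternatives were other scalings, no filter, DESeq2 1.42.0, limma 3.58.1 on log2(TPM + 1), the replicate block, 6 libraries, a term for corticosterone 1 and 2, transcript sums and leaving out each library. Replicate numbers are not stated to pair the samples. The members and lists were chosen with earlier results of these data known, so the counts of each list are a description. Named from each list were the 4 genes with the smallest p among those past the threshold, all genes of a direction with 5 or fewer, and Fkbp5, Tsc22d3, Dusp1 and Nr3c1. Older symbols Cyr61, Ctgf, Mkl1 and Mkl2 were read as Ccn1, Ccn2, Mrtfa and Mrtfb. Intervals cover counting error only.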

Additional observations from a re-analysis of the deposited data

Results flagged for a closer look

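Of 88 groups of 4 libraries searched for a library far from the others, 2 were picked out, and chance picks out about 1 in 20. Mt2 in medium replicate 1 had 0.021 CPM, from its single count, against 0 in the other 3 medium libraries. Lcn2 in medium replicate 1 likewise had 0.021 CPM from 1 count, against 0 in the other 3.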

How the results depend on the processing

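The direction of each of the 10 genes was the same under every setting run. With limma on log2(TPM + 1), 1718 genes changed, against 5327 with edgeR, and the counts were 5 of the members (8), 6 bZIP partners (14), 16 other immediate early genes (27) and 2 upstream regulators (16); the counts of AP-1 target genes and glucocorticoid receptor targets stayed within 1.5 times. TPM of corticosterone 1 and 2 rest on another effective length. Leaving out 1 library gave 4753 to 5089 genes, 7 to 8 members, 14 to 15 bZIP partners, 25 to 28 early genes, 11 to 15 upstream regulators, 19 to 21 AP-1 targets and 17 receptor targets.

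Replicate numbers are not stated to pair the samples, so the replicate block is given here only. Same-numbered libraries correlated at -0.042, 0.026, -0.101 and -0.019 in their deviations from the group means. These values cannot show whether the samples were paired. With the replicate block 4913 genes changed, and 9 members instead of 8, since Fosl1 passed (log2 fold change -0.51, adjusted p = 0.0307). Fosl1 kept its negative sign under all settings run (log2 fold change -0.61 to -0.18), and its call depended on the setting; the cause was not tested. Fos had the fewest counts of the 10 genes and passed under every setting run.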
